A study of Mus musculus with 12 samples.

Results

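The 37 genes described here are chemokine ligands and chemokine receptors of the mouse kidney, chosen by name from the protein-coding genes called Ccl, Cxcl, Ccr, Cxcr or Ackr followed by a number. They were 26 ligands and 11 receptors among the 19760 genes listed in either of the deposited count tables. The whole-kidney table held 35 of them and the table of F4/80+ cells held 21. Both tables held 19 of them, namely 13 ligands and 6 receptors. Cxcl2 and Ccl4 were held by the F4/80+ table only, and 16 members by the kidney table only.

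RNA was sequenced from mice made homozygous with CRISPR-Cas9 for either the Arg-encoding major or the Trp-encoding minor allele of a human coding polymorphism, which lies in the gene for the adaptor LNK (Sh2b3). All mice, of both genotypes, had received angiotensin II, a peptide that raises blood pressure, for 4 weeks, and no library came from untreated mice. The 4 groups were whole kidney of Arg/Arg mice, whole kidney of Trp/Trp mice, and renal F4/80+ cells of Arg/Arg and of Trp/Trp mice, each with 3 biological replicates. The F4/80+ cells came from other kidneys, which were run on Percoll before cells were pulled out with magnetic beads carrying an antibody to F4/80. F4/80 is a surface protein of mouse macrophages. Whether each replicate was 1 animal was not stated in the sources used here, so p-values measure the spread between these samples.

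Chemokines are small secreted proteins that guide leukocytes along concentration gradients through G protein-coupled receptors on the moving cell. Many receptors bind several ligands, and atypical receptors (Ackr) take ligands up without G protein signalling and so shape the gradient. In the kidney, the ligands that draw monocytes and neutrophils are made by tubule, endothelial and immune cells under stress, whereas the homeostatic ligand Cxcl12 is made by stromal and epithelial cells.

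Library totals were 19.6 to 54.7 M counts (M for mega) in kidney and 35.9 to 51.6 M in F4/80+ libraries. Mitochondrial genes took 7.86% to 9.35% of the counts in kidney and 70.1% to 83.6% in F4/80+ libraries, so levels are given as CPM (counts per 1 M counts of nuclear protein-coding genes), of which the F4/80+ libraries held 6.88 to 11.1 M. The defining markers did not set the F4/80+ libraries apart as macrophages. The 12 macrophage markers summed to 206 to 303 CPM in kidney, and the 11 of them in the F4/80+ table to 121 to 262 CPM. Adgre1, which encodes F4/80, differed between sample types by a log2 value of 0.15 ± 0.47 (SE) and did not pass the test (edgeR adjusted p = 0.79). Single markers moved in both directions, with Cd68 (1.23 ± 0.26) and Lyz2 (1.00 ± 0.39) passing as higher in F4/80+ libraries. C1qa, C1qb, C1qc, Csf1r, Cx3cr1 and Mertk passed as lower, from -0.21 ± 0.08 for Mertk to -2.88 ± 0.32 for C1qa. Fcgr1 was the marker not in the F4/80+ table. The 8 proximal tubule markers summed to between 4974 and 16490 CPM in F4/80+ libraries, and 12 immediate early and dissociation genes to between 5468 and 10660 CPM, against 291 to 407 CPM in kidney. The F4/80+ libraries are therefore called by their label only. In Trp/Trp kidney replicate 1 the 6 B and plasma cell markers summed to 90.0 CPM against 4.32 to 5.66 CPM in the other kidneys, and this library held the highest level of 25 of the 35 kidney members. In Arg/Arg F4/80+ replicate 1 the 6 thick limb and distal nephron markers summed to 12720 CPM, against 5153 and 4919 CPM in the other Arg/Arg F4/80+ libraries. The expression of these genes does not show which Sh2b3 allele a library carries.

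A few genes stood far above the rest in whole kidney. Of the 35 members in the kidney table, 5 had a mean of at least 10 CPM, 10 lay between 1 and 10 CPM and 20 lay under 1 CPM. Genes are ranked here by level per kb of exon (CPM per kb), since longer transcripts give more counts. Cxcl12, which retains and attracts Cxcr4-bearing cells, had the highest mean among ligands at 21.2 ± 2.51 CPM per kb (SD, n = 6), or 174 ± 20.6 CPM. The Arg/Arg kidneys held 168, 157 and 162 CPM of Cxcl12 and the Trp/Trp kidneys 214, 167 and 174 CPM, with Trp/Trp replicate 1 above the rest. Cxcl14, a ligand of epithelia, followed at 19.5 ± 3.66 CPM per kb (35.6 ± 6.69 CPM), within the spread of Cxcl12. Cxcl16, the membrane-bound ligand of Cxcr6, stood at 10.04 ± 0.836 CPM per kb (30.3 ± 2.53 CPM), below both in every library, and Ccl27a at 3.27 ± 0.183 CPM per kb. Ccl21a stood at 3.07 ± 1.53 and Ccl6 at 2.62 ± 0.808 CPM per kb. Ccl25, known as a ligand of Ccr9, stood at 1.42 ± 0.208 CPM per kb (10.6 ± 1.55 CPM).

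Among kidney receptors, the scavenger of Cxcl12, Ackr3, was the highest at 14.7 ± 2.17 CPM per kb (SD, n = 6; 49.2 ± 7.26 CPM). Cxcr4, the signalling receptor of Cxcl12, followed at 3.66 ± 1.07 CPM per kb, then Ccr2, the receptor of inflammatory monocytes, at 0.944 ± 0.417 CPM per kb. Cxcr3 (0.582 ± 0.298), Cxcr6 (0.492 ± 0.21) and Ccr10 (0.397 ± 0.076) came next in CPM per kb, neighbours that did not differ beyond their spread. Per kb, Cxcl12 stood at 1.11 to 1.59 times the level of Ackr3 in every kidney library. Some inflammatory ligands lay low in whole kidney, with Ccl2 between 0.191 and 0.787 CPM and Ccl3 between 0.0669 and 0.307 CPM, which was 2 to 13 counts per library. Others stood higher, with means of 3.12 CPM for Cxcl10, 2.40 CPM for Cxcl9 and 4.70 CPM for Ccl6. Ccl20 in Arg/Arg kidney replicate 1 and Ccl17 in Trp/Trp kidney replicate 3 had 0 counts, which allows levels of up to 0.0957 and 0.169 CPM.

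In F4/80+ libraries another set of ligands led. Cxcl10, the interferon-induced ligand of Cxcr3, had the highest mean at 25.7 ± 12.01 CPM per kb (SD, n = 6; 57.9 ± 27.0 CPM). Cxcl1, a neutrophil attractant that acts on Cxcr2, followed at 16.9 ± 6.55 CPM per kb (31.7 ± 12.3 CPM) and Ccl3 at 12.8 ± 10.49 CPM per kb, with overlapping spreads. Ackr3 stood at 9.28 ± 2.35, Cxcl16 at 8.15 ± 2.21 and Ccl4 at 6.72 ± 5.61 CPM per kb. Cxcr4, at 4.50 ± 2.19 CPM per kb, was the highest signalling receptor. Cxcl12 stood at 2.95 ± 0.454 CPM per kb (24.1 ± 3.71 CPM), which was 0.258 to 0.451 times the level of Ackr3, below the kidney range in every library. Of the 21 members in this table, 7 had a mean of at least 10 CPM, 12 lay between 1 and 10 CPM and 2 lay under 1 CPM. Ccl6 and Ccl9, myeloid ligands of Ccr1, had 0 counts in Arg/Arg F4/80+ replicate 2, which allows up to 0.379 CPM. All intervals of this kind cover counting error only.

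**Figure D1:**
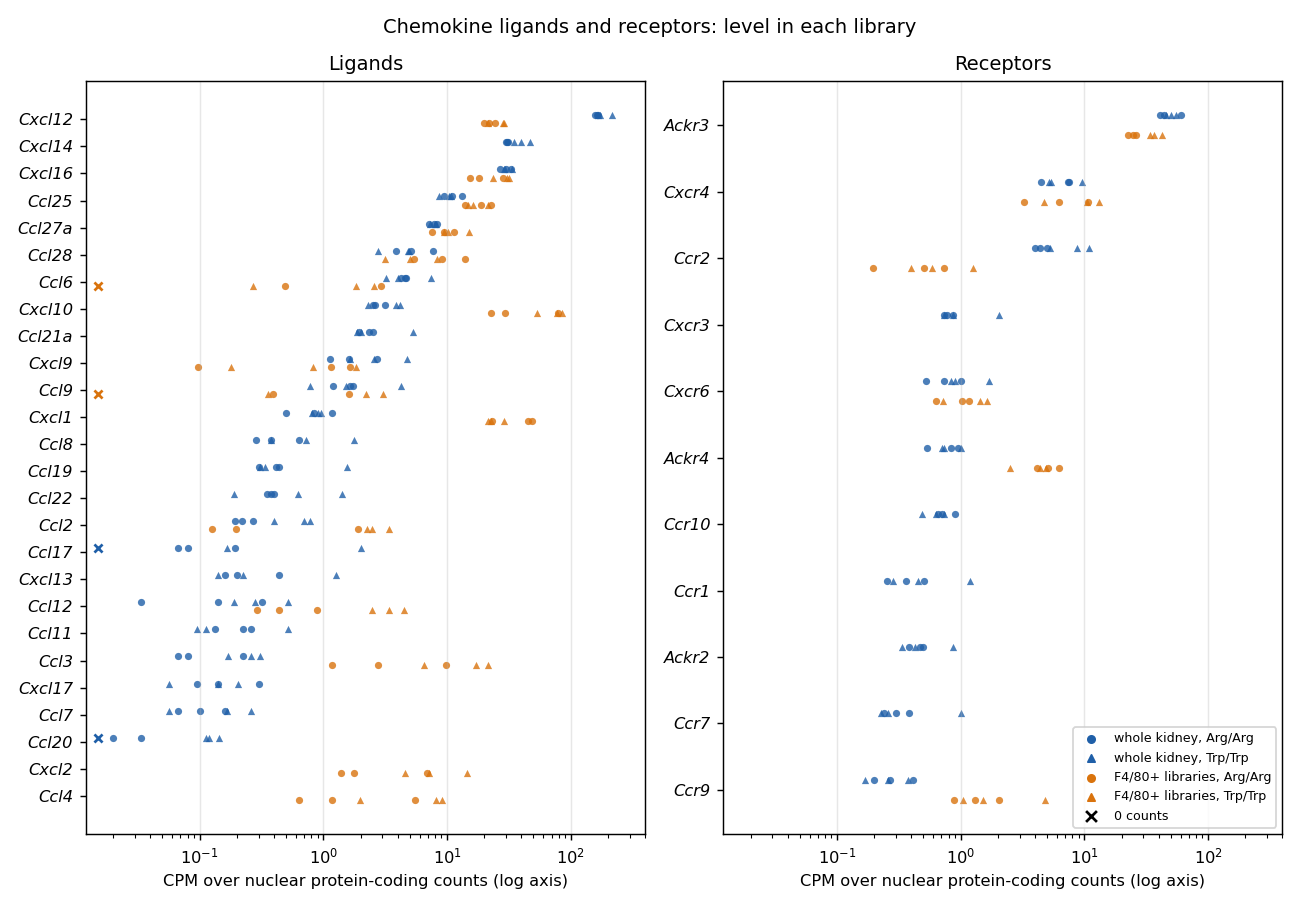
Level of each ligand (left) and receptor (right) in each library, in CPM over nuclear protein-coding counts on a log axis, with kidney in blue, F4/80+ libraries in orange, circles for Arg/Arg, triangles for Trp/Trp and crosses for 0 counts. Genes are ordered by mean kidney level with Cxcl2 and Ccl4, held by the F4/80+ table only, at the bottom, and Cxcl1, Cxcl10 and Ccl3 show all orange points to the right of all blue ones.

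The comparison of sample types asked which chemokine genes were higher in the F4/80+ libraries than in whole kidney. Of the 19 members in both tables, 14 passed the edgeR quasi-likelihood test (Benjamini-Hochberg adjusted p under 0.05, fitted over 13578 genes), 9 higher and 5 lower in F4/80+ libraries. Over all genes 63.8% passed, 26.5% higher and 37.3% lower, so passing was common at large. The median log2 difference was 0.43 for the 19 members and -0.13 for all genes. Ligands passed in 10 of 13 cases (7 higher, 3 lower) and receptors in 4 of 6 (2 higher, 2 lower). TMM scaling, which brought the median of all genes to -0.01, gave 10 members higher and 4 lower. Without Trp/Trp kidney replicate 1, 12 members passed, 8 higher and 4 lower, with the calls for Ccl27a and Cxcl9 lost. Sample types differ in the cells they hold and were deposited as separate tables, and these cannot be told apart. In bulk libraries, fewer cells of a type and less RNA per cell cannot be told apart either.

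Cxcl1 and Cxcl10 were higher in every F4/80+ library than in any kidney library. Cxcl1 ranged from 0.500 to 1.18 CPM in kidney (median 0.868) and from 21.5 to 48.9 CPM in F4/80+ libraries (median 25.9), with no overlap, and was higher by a log2 value of 5.18 ± 0.25 (SE, edgeR adjusted p = 2.98e-09). Cxcl10 ranged from 2.31 to 4.19 CPM in kidney (median 2.89) and from 22.6 to 85.2 CPM in F4/80+ libraries (median 65.2), again with no overlap, a log2 difference of 4.18 ± 0.30 (edgeR adjusted p = 1.06e-07). Its neighbour Cxcl9, an interferon-gamma-induced ligand of the same receptor, went the other way, from a median of 2.12 CPM in kidney to 0.993 CPM, with overlapping ranges and a log2 difference of -1.36 ± 0.53 (edgeR adjusted p = 0.0378). The call for Cxcl9 was lost under 10 of the alternatives tried, for example at -1.10 (adjusted p = 0.0971) without Trp/Trp kidney replicate 1. Per kb, Cxcl10 stood at 1.19 to 2.99 times the level of Cxcl9 in kidney and at 24.1 to 636 times in F4/80+ libraries, where Cxcl9 had 1 to 14 counts per library, so that the size of the F4/80+ ratio is poorly known. Cxcl10 shares 133 nt of exon with Art3 on the opposite strand, 5.91% of its exons, and Art3 was higher too, by 1.30 ± 0.31. The sources used here do not say whether counting was stranded.

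The promoters of these neighbouring genes are shown because Cxcl1 and Cxcl10 were higher while Cxcl9 was lower in the same libraries. Cxcl1 and Cxcl2 lie 10.8 kb apart and Cxcl10 and Cxcl9 lie 18.6 kb apart, both pairs on chromosome 5. RefSeq promoters (GRCm38.p6, 250 bases before to 50 after the start) were matched for 29 of the 37 members. Those printed are chr5:90890995-90891294 and chr5:90903649-90903948 on the plus strand and chr5:92348840-92349139 and chr5:92328030-92328329 on the minus strand, each read 5′ to 3′ along the gene. Capitals mark matches, searched on both strands, to the NF-kB consensus and to the core of the interferon response element, which is GAAA, any 2 bases and GAAA again.
Cxcl1: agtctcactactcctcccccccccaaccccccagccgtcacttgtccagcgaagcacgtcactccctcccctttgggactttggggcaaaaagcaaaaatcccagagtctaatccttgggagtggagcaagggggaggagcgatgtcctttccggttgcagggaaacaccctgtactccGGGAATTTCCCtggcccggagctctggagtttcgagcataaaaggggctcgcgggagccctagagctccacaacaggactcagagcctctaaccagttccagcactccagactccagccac
Cxcl2: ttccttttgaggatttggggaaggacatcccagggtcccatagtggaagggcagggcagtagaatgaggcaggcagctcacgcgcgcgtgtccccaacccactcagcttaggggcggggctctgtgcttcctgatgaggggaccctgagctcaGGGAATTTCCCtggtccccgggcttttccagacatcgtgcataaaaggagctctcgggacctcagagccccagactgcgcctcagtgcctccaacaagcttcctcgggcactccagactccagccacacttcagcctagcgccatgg
Cxcl10: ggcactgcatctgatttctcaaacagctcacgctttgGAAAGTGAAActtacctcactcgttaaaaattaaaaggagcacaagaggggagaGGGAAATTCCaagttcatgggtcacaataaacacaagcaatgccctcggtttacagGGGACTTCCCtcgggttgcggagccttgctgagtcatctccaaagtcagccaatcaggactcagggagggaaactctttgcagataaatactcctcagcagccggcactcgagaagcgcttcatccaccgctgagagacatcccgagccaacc
Cxcl9: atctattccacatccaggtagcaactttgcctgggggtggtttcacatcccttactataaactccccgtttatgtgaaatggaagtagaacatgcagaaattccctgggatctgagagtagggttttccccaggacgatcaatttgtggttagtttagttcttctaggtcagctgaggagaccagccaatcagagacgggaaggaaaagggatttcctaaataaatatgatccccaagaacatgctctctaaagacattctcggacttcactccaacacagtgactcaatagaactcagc

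Cxcl1 and Cxcl2 both held GGGAATTTCCC, beginning 71 and 97 bases before the start. Cxcl10 held GGGAAATTCC 159 bases and GGGACTTCCC 103 bases before the start, and GAAAGTGAAA 213 bases before it. No match to either motif was found in the Cxcl9 window. These genes were picked by their values, and other members were mixed. Ccl3, Ccl12, Ccr9, Ackr4 and Ccl25, which passed as higher between sample types, held neither motif. Neither did Cxcl12, Ackr3, Ccr2 and Ccl6, which passed as lower. An NF-kB match was held by Ccl27a, which passed as higher, and by Ccl9, which did not pass. Whether motifs went with the direction of change was not tested. The stricter NF-kB core, GGGA followed by any 2 bases and TTCC, whose matches overlap those of the consensus, was present in 3 of the 29 member genes (Cxcl1, Cxcl2 and Cxcl10) and in 1.47% of all 32851 promoters in the table. The consensus was present in 7 of 29 and in 4.5% of all promoters, and the interferon response core in 3 of 29 (Ccl19, Cxcl10 and Cxcl14) and in 3.44%. TTCNNNGAA, the core bound by STAT proteins, was present in 2 of 29 (Ccl17 and Cxcl14) and in 8.3%. Member genes were counted if any of their starts matched, whereas the percentages count each promoter. Counted by promoter, the members had 3 of 32 with the stricter core and 7 of 32 with the consensus. The interferon response core was in 3 of 32 and TTCNNNGAA in 2 of 32. These are matches of letters and no measure of binding.

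Ligands of monocytes and macrophages did not all go one way. Ccl3, a ligand of Ccr1, ranged from 0.0669 to 0.307 CPM in kidney and from 1.17 to 21.4 CPM in F4/80+ libraries without overlap, a log2 difference of 5.50 ± 0.55 (edgeR adjusted p = 1.75e-06). Ccl12, a mouse ligand of Ccr2, was higher by 2.51 ± 0.48 with overlapping ranges (adjusted p = 0.000505). Ccl2, the main ligand of Ccr2, was higher by 1.85 ± 0.49 (adjusted p = 0.00488), but without Arg/Arg F4/80+ replicate 1 the value was 0.85 and the call was lost (adjusted p = 0.14). Ccl25 was higher by 0.77 ± 0.15 without overlap (adjusted p = 0.000676), and Ccl27a, a skin and epithelial ligand of Ccr10 with near-identical gene copies, by 0.43 ± 0.16 (edgeR adjusted p = 0.0279). Ccl25 shares 204 nt of exon, 2.74% of its own, with Elavl1 on the opposite strand, and Elavl1 did not pass (0.14 ± 0.11). The call for Ccl27a was lost under 9 of the 18 alternatives tried, for example without Trp/Trp kidney replicate 1 (0.41, adjusted p = 0.0608). The myeloid ligand Ccl6 was lower, at a log2 difference of -1.90 ± 0.55 without overlap (adjusted p = 0.00781), a call that was lost within the Trp/Trp libraries (-1.70, adjusted p = 0.0505). Without Arg/Arg F4/80+ replicate 1 the value of Ccl6 was -2.87. Ccl9, another ligand of Ccr1, was at -0.80 ± 0.60 and did not pass.

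Cxcl12, its scavenger Ackr3 and the monocyte receptor Ccr2 were lower, while Cxcr4, the signalling receptor of Cxcl12, did not pass (log2 0.25 ± 0.31). Cxcl12 ranged from 157 to 214 CPM in kidney (median 168) and from 20.1 to 28.8 CPM in F4/80+ libraries (median 23.2), a log2 difference of -2.85 ± 0.11 (edgeR adjusted p = 8.3e-10). The 6 fibroblast and pericyte markers moved with it, summing to 230 to 482 CPM in kidney, and the 5 of them in the F4/80+ table to 7.24 to 38.2 CPM. Their part in the Cxcl12 difference was not tested. Ackr3 was lower, at a log2 difference of -0.70 ± 0.12 with overlapping ranges (edgeR adjusted p = 0.000167), and at -0.41 within Trp/Trp libraries (adjusted p = 0.0452). Ccr2 ranged from 3.98 to 10.96 CPM in kidney and from 0.196 to 1.26 CPM in F4/80+ libraries, without overlap, and was lower, at a log2 difference of -3.34 ± 0.33 (adjusted p = 1.61e-06). In the F4/80+ libraries its level rested on 2 to 14 counts.

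The remaining receptors did not move together. Cxcr6, the receptor of Cxcl16, did not pass (0.23 ± 0.34). Ackr4, the scavenger of Ccl19, Ccl21 and Ccl25, ranged from 0.535 to 1.01 CPM in kidney and from 2.49 to 6.26 CPM in F4/80+ libraries, and was higher by 2.49 ± 0.26 without overlap (edgeR adjusted p = 2.38e-06). Ccr9, the receptor of Ccl25, was higher by 2.71 ± 0.43 without overlap (adjusted p = 0.000109), with 0.169 to 0.415 CPM in kidney and 0.885 to 4.82 CPM in F4/80+ libraries. Both counts are uncertain, since Ackr4 shares 479 nt of exon with Acad11 on the opposite strand, and Ccr9 shares exon with 3 genes, 18.8% of its exons with AC165425.1. Acad11 itself was lower, at -0.61 ± 0.11. Cxcl16 (-0.32 ± 0.15) and Ccl28 (0.59 ± 0.29) did not pass.

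**Figure D2:**
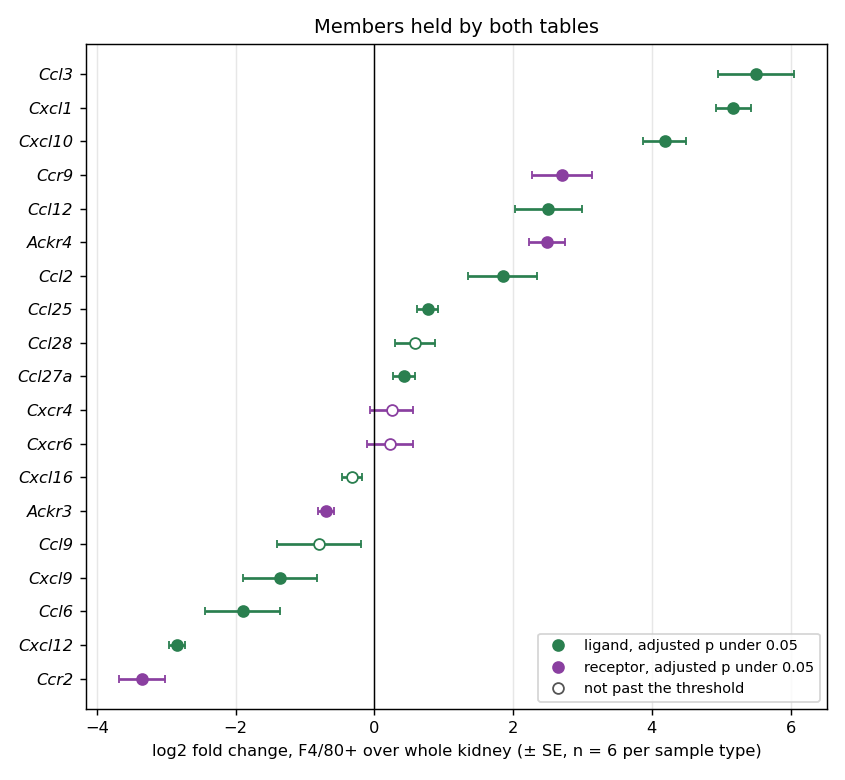
Log2 fold change of F4/80+ libraries over whole kidney for the 19 members in both tables, with the SE from the edgeR test and 6 libraries per sample type. Green points are ligands, purple points receptors, and open points did not pass, with Ccl3, Cxcl1 and Cxcl10 at the top and Ccr2 and Cxcl12 at the bottom.

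The comparison of genotypes in whole kidney asked whether the Trp allele changed these genes after angiotensin II. None of the 25 members with enough counts passed, and neither did any of the 14464 genes tested (0.0%). The smallest adjusted p was 0.843 by the edgeR quasi-likelihood test. DESeq2 on the same counts called 15 genes (0.104%), none of them a member, and its smallest adjusted p among members was 0.134, for Cxcl14. At an unadjusted p under 0.05 stood 3 members, all higher in Trp/Trp, where 3.68% of all genes were higher and 2.03% lower at that level. These were Cxcl14, Ccr2 and Ccl2, and they were also the tested members whose genotypes did not overlap, a pattern found with Trp/Trp higher in 6.59% of all genes and with Trp/Trp lower in 3.67%.

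Cxcl14 stood at 31.0, 30.3 and 30.7 CPM in Arg/Arg kidneys and at 47.2, 39.5 and 34.9 CPM in Trp/Trp kidneys. Each Trp/Trp kidney lay above each Arg/Arg kidney, with a log2 difference of 0.39 ± 0.09 (SE, edgeR adjusted p = 0.843). Ccl2 stood at 0.191, 0.220 and 0.268 CPM in Arg/Arg and at 0.694, 0.401 and 0.787 CPM in Trp/Trp kidneys, from 6, 11 and 8 against 24, 17 and 14 counts. The groups did not overlap, and the log2 difference was 1.39 ± 0.41 (edgeR adjusted p = 0.843).

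Its receptor Ccr2 stood at 4.40, 3.98 and 4.95 CPM in Arg/Arg and at 10.96, 5.24 and 8.77 CPM in Trp/Trp kidneys. Trp/Trp replicate 2 lay just above the Arg/Arg range and the other Trp/Trp kidneys well above it, for a log2 difference of 0.88 ± 0.24 (edgeR adjusted p = 0.843). Without Trp/Trp replicate 1 the 3 log2 values were 0.29 for Cxcl14, 1.26 for Ccl2 and 0.62 for Ccr2, each still at an unadjusted edgeR p under 0.05.

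Markers of some leukocytes moved beside these genes. The macrophage markers summed to 206 to 227 CPM in Arg/Arg and 233 to 303 CPM in Trp/Trp kidneys, the 6 T and NK cell markers in the table to 3.46 to 5.81 against 6.49 to 12.7 CPM, and the dendritic cell markers to 19.4 to 23.1 against 25.1 to 35.0 CPM. These sums did not overlap between genotypes. Among all single genes, 6.59% did not overlap with Trp/Trp higher, and no marker tested passed. Much of the macrophage sum was Mertk (log2 -0.007 ± 0.07) and Csf1r (0.06 ± 0.09). The other macrophage markers were positive, from 0.36 ± 0.24 for Cd68 to 1.22 ± 0.19 for Cx3cr1. Of the T and NK cell markers, Cd3e, Cd3g, Cd4 and Nkg7 overlapped, and Cd3d and Cd8a did not. The 4 neutrophil markers in the table summed to 1.51 to 1.82 CPM in Arg/Arg and 0.787 to 1.72 CPM in Trp/Trp kidneys, and the B and plasma cell markers overlapped apart from Trp/Trp replicate 1. Their part in the values of Ccr2, Ccl2 and Cxcl14 was not tested.

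For the kidney members as a list, the direction changed when 1 library was left out. Of the 25 tested, 21 had a positive log2 difference, where 50.6% of all genes did, and the median was 0.28 against 0.002 for all genes. Without Trp/Trp replicate 1 the members divided into 11 positive and 14 negative, with a median of -0.03. This library held the highest level of 25 of the 35 kidney members, so lower values follow from the choice. Ligands had a median of 0.34 (13 of 16 positive) and receptors of 0.28 (8 of 9 positive), which became 0.01 and -0.12 without that library. Ccl8, a ligand of Ccr8, stood at 0.287, 0.380 and 0.636 CPM in Arg/Arg and 1.76, 0.378 and 0.731 CPM in Trp/Trp kidneys. Its log2 value of 1.13 ± 0.57 became 0.24 without Trp/Trp replicate 1. Cxcl12 likewise went from 0.17 ± 0.08 to 0.07. Cxcr6, a receptor of resident T cells, stood at 0.734, 0.520 and 1.004 CPM in Arg/Arg and 1.71, 0.897 and 0.843 CPM in Trp/Trp kidneys, which overlap, and its log2 value of 0.63 ± 0.38 became 0.26.

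Several further members stood highest in the same kidney, and are named here because of that level. Cxcl13, which draws B cells, stood at 1.27 CPM in Trp/Trp replicate 1 and at 0.142 to 0.435 CPM in the other 5 kidneys. Ccl19, a ligand of Ccr7, stood at 1.56 against 0.301 to 0.44 CPM, and Ccr7 itself at 1.01 against 0.225 to 0.383 CPM. Ccl21a, the other ligand of Ccr7 and one of several near-identical gene copies, stood at 5.35 against 1.87 to 2.54 CPM. Ccl22 and Ccl17, the ligands of Ccr4, stood at 1.42 against 0.189 to 0.619 CPM and at 2.02 against 0 to 0.191 CPM. The same library held the high B and plasma cell markers given above, and fibroblast and pericyte markers of 482 CPM against 230 to 270 CPM. Their part in these levels was not tested.

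The other tested members lay between the extremes. Ccl22, Ccl19, Ccr1, Cxcl9, Cxcr3, Ccl9, Ccl21a, Cxcl10 and Ackr2 had log2 differences from 0.28 to 0.93. Without Trp/Trp replicate 1 the values turned negative for Ccl22 (-0.16), Ccl19 (-0.30), Ccr1 (-0.12), Ccl9 (-0.31), Ccl21a (-0.25) and Ackr2 (-0.21), and fell to 0.17 for Cxcl9, 0.05 for Cxcr3 and 0.10 for Cxcl10. Ccl9, for example, stood at 1.75, 1.64 and 1.204 CPM in Arg/Arg and at 4.22, 1.53 and 0.787 CPM in Trp/Trp kidneys, so that the other Trp/Trp kidneys lay within or below the Arg/Arg range. Ccl6, Cxcl1, Ackr3, Cxcr4, Ackr4 and Cxcl16 had log2 differences from 0.03 to 0.10, and without that library from -0.34 for Ccl6 to 0.05 for Cxcl1. Cxcl16 shares 552 nt of exon, 18.3% of its own, with Zmynd15 on the opposite strand.

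The 4 members with negative values were Ccl28 (-0.43 ± 0.30), Ccr10 (-0.31 ± 0.32), Ccl25 (-0.20 ± 0.15) and Ccl27a (-0.01 ± 0.12), of which Ccl27a and Ccl28 are mucosal and skin ligands of Ccr10. Without Trp/Trp replicate 1 they stood at -0.18, -0.15, -0.09 and 0.05. The sign of Ccl27a turned under some alternatives. A further 10 kidney members had too few counts for the test, namely Ccl3, Ccl7, Ccl11, Ccl12, Ccl17, Ccl20, Cxcl13, Cxcl17, Ccr7 and Ccr9. Among them Ccl20, the ligand of Ccr6, had 0, 1 and 1 counts in Arg/Arg and 5, 5 and 2 counts in Trp/Trp kidneys, without overlap in CPM. Of the genes tested, 6.59% showed that pattern with Trp/Trp higher, and for Ccl20 it rests on 0 to 5 counts per library.

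**Figure D3:**
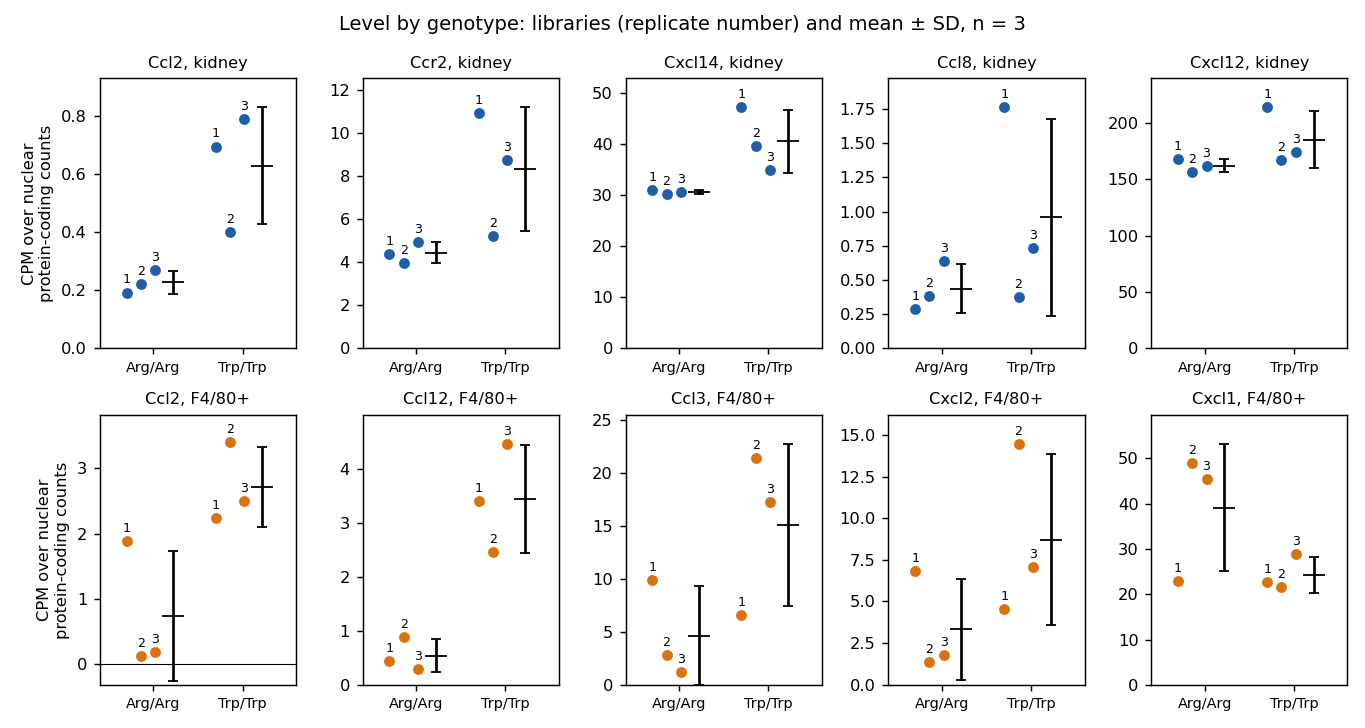
CPM over nuclear protein-coding counts by genotype for 5 members in kidney (top) and 5 in F4/80+ libraries (bottom), with each library as a numbered point and the mean ± SD beside it (n = 3). Ccl2, Ccr2 and Cxcl14 do not overlap between genotypes in kidney, Ccl8 and Cxcl12 overlap and are highest in Trp/Trp replicate 1, and in F4/80+ libraries Arg/Arg replicate 1 lies apart from the other Arg/Arg libraries for Ccl2, Ccl3, Cxcl2 and Cxcl1.

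In F4/80+ libraries the same comparison gave no call. None of the 19 members tested and none of 15225 genes passed (0.0%), and the smallest adjusted p was 0.605 by the edgeR quasi-likelihood test. DESeq2 called 11 genes (0.0722%), none of them a member. At an unadjusted p under 0.05, 5 members were higher and 1 lower in Trp/Trp, where 4.43% and 3.61% of all genes were. In simulated data at this depth and spread, the test recovered 78.8% of genes changed 4-fold and 19.4% of genes changed 2-fold, against 100% and 82.1% in kidney. It also called 3 unchanged genes here and 15 in kidney. The changed genes were drawn from all genes tested, and counts were drawn separately for each gene. Recovery of members with few counts, or with a library apart from its group, was therefore not measured.

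The ligands of Ccr2 had the largest positive values. Ccl12 stood at 0.436, 0.885 and 0.293 CPM in Arg/Arg and at 3.41, 2.47 and 4.46 CPM in Trp/Trp libraries, from 3, 7 and 3 against 38, 21 and 34 counts. The groups did not overlap, as for 7.19% of all genes with Trp/Trp higher and 3.33% with Trp/Trp lower, and the log2 difference was 2.54 ± 0.59 (SE, edgeR adjusted p = 0.605). Ccl2 stood at 1.89, 0.126 and 0.196 CPM in Arg/Arg and at 2.24, 3.41 and 2.49 CPM in Trp/Trp libraries, so that Arg/Arg replicate 1 lay near the Trp/Trp range and the groups still did not overlap (log2 1.89 ± 0.74, edgeR adjusted p = 0.605). Without Arg/Arg replicate 1 the log2 value of Ccl2 was 3.70 (adjusted p = 0.0825), and leaving out either other Arg/Arg library brought it to 1.42 or 1.43.

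Arg/Arg replicate 1 stood apart in the same way for ligands of Ccr1 and Cxcr2. Ccl3 stood at 9.89, 2.78 and 1.17 CPM in Arg/Arg and at 6.55, 21.4 and 17.2 CPM in Trp/Trp libraries, which overlap (log2 1.66 ± 0.59, edgeR adjusted p = 0.605). Cxcl2, a neutrophil attractant, stood at 6.83, 1.39 and 1.76 CPM in Arg/Arg and at 4.58, 14.5 and 7.09 CPM in Trp/Trp libraries (log2 1.32 ± 0.55, edgeR adjusted p = 0.606). Its neighbour Cxcl1, which acts on the same receptor, had the opposite sign at 23.0, 48.9 and 45.4 CPM in Arg/Arg and 22.6, 21.5 and 28.9 CPM in Trp/Trp libraries (log2 -0.86 ± 0.34, edgeR adjusted p = 0.605). Arg/Arg replicate 1 had the level of the Trp/Trp libraries for Cxcl1. Per kb, Cxcl1 stood at 3.71, 38.8 and 28.4 times the level of Cxcl2 in Arg/Arg and at 5.45, 1.64 and 4.49 times in Trp/Trp libraries. Without Arg/Arg replicate 1 the log2 values were 2.67 for Ccl3, 2.17 for Cxcl2 and -1.19 for Cxcl1, with adjusted p between 0.0825 and 0.0881. This omission removed the Arg/Arg library nearest the Trp/Trp levels of these genes, so larger differences follow from the choice. It also brought 10.1% of all genes to higher at an unadjusted edgeR p under 0.05, against 4.43% with all libraries. Other single omissions made the differences smaller, down to 1.201 for Ccl3, 0.83 for Cxcl2 and -0.63 for Cxcl1.

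Ccl4, a macrophage inflammatory protein whose gene lies 13.2 kb from Ccl3, stood at 5.52, 0.632 and 1.17 CPM in Arg/Arg and at 1.97, 8.11 and 9.19 CPM in Trp/Trp libraries, with overlap (log2 1.35 ± 0.69). Without Arg/Arg replicate 1 the log2 value of Ccl4 was 2.51, and without Arg/Arg replicate 2 it was 0.93. Its order of libraries was near that of Ccl3, with Trp/Trp replicates 2 and 3 high and Arg/Arg replicate 1 next to them. Cxcl10 stood at 79.5, 29.6 and 22.6 CPM in Arg/Arg and at 85.2, 77.2 and 53.3 CPM in Trp/Trp libraries (log2 0.66 ± 0.36), with Arg/Arg replicate 1 again among the Trp/Trp values and a log2 value of 1.23 without it. None of these passed.

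Among receptors, Ackr3 stood at 26.02, 24.9 and 22.4 CPM in Arg/Arg and at 42.4, 36.9 and 33.7 CPM in Trp/Trp libraries, without overlap (log2 0.50 ± 0.22, edgeR adjusted p = 0.616). Negative values besides that of Cxcl1 were those of Ccl28 (-0.96 ± 0.47), Ackr4 (-0.53 ± 0.38) and Ccl25 (-0.22 ± 0.24). In all, 15 of 19 members were positive, where 51.1% of all genes were, with a median of 0.42 against 0.01. Scaling by nuclear protein-coding totals without TMM, with 18 members tested, moved the medians to 0.57 and 0.15. The members not yet named were Ccl9 (1.43 ± 0.94), Ccr9 (0.59 ± 0.62), Ccl6 (0.42 ± 0.99), Cxcr4 (0.41 ± 0.44), Cxcl16 (0.36 ± 0.25), Cxcr6 (0.25 ± 0.57), Ccl27a (0.17 ± 0.32) and Cxcl12 (0.10 ± 0.24). Without Arg/Arg replicate 1 the values were 2.77 for Ccl9, 2.20 for Ccl6, 0.76 for Cxcr4, 0.07 for Ccl27a and -0.02 for Cxcl12, with no call. The Arg/Arg side then rested on 0 and 4 counts for Ccl9 and on 0 and 5 counts for Ccl6. Ccr2 and Cxcl9 had too few counts for the test in this table.

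The make-up of the F4/80+ libraries moved beside these values. The macrophage markers summed to 121 to 221 CPM in Arg/Arg and 185 to 262 CPM in Trp/Trp libraries, with Arg/Arg replicate 1 the highest of its group at 221 CPM. Much of the sum was Mertk, at 79.9 to 83.3 CPM in Arg/Arg and 61.2 to 66.6 CPM in Trp/Trp libraries (log2 -0.47 ± 0.20). The other macrophage markers tested went the other way, from 0.42 ± 0.23 for Csf1r to 2.02 ± 0.52 for C1qc, and none passed. The proximal tubule markers summed to 7956 to 16490 CPM in Arg/Arg and 4974 to 11820 CPM in Trp/Trp libraries, and the immediate early genes to 5468 to 9303 against 9298 to 10660 CPM. The thick limb and distal nephron markers went the other way from the proximal tubule markers, at 4919 to 12720 CPM in Arg/Arg and 9789 to 19190 CPM in Trp/Trp libraries, again overlapping through Arg/Arg replicate 1. Of the 8 neutrophil markers, Csf3r alone was in the F4/80+ table, at 0.0978 to 0.94 CPM. Their part in the genotype values of the ligands was not tested.

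**Figure D4:**
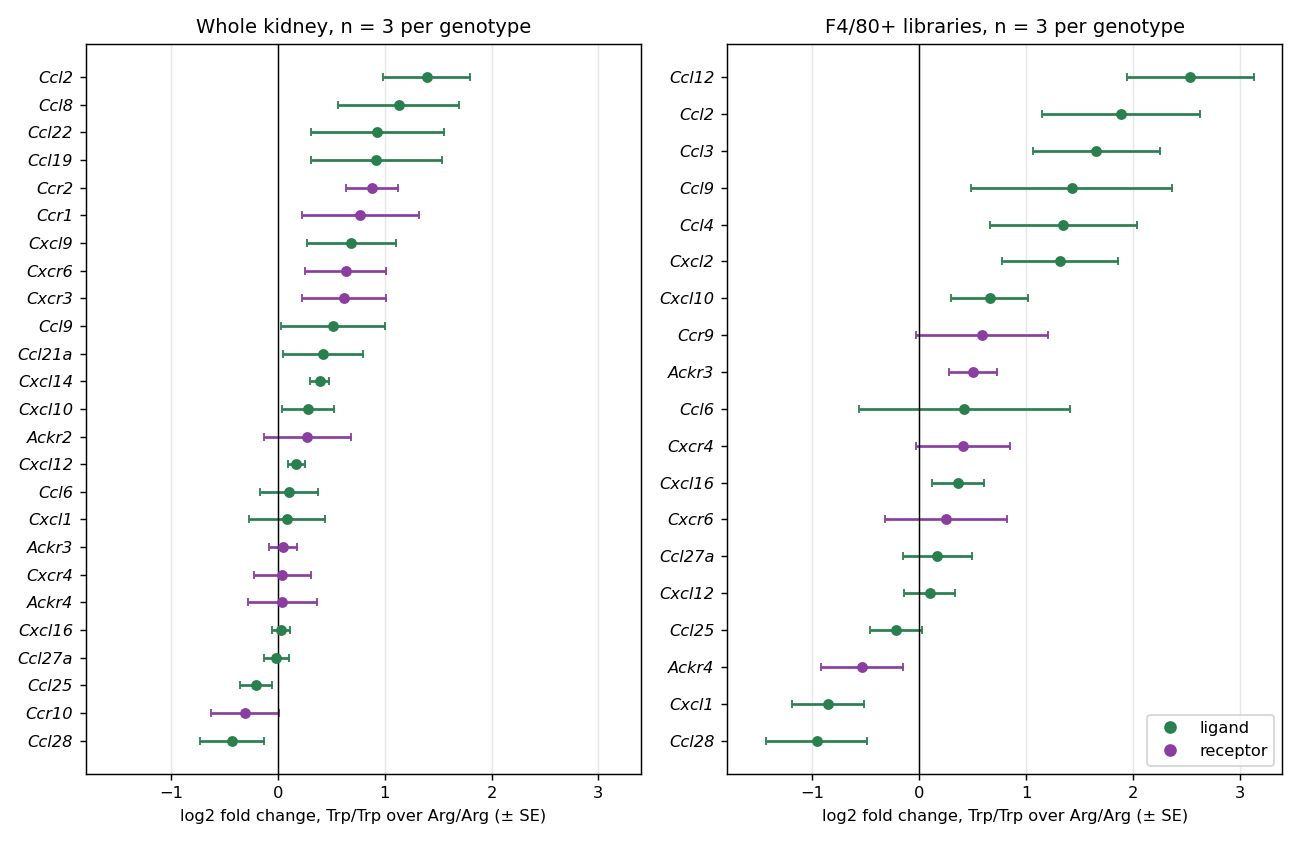
Log2 fold change of Trp/Trp over Arg/Arg with the SE from the edgeR test for the 25 members tested in whole kidney (left) and the 19 tested in F4/80+ libraries (right), 3 libraries per genotype. Ligands are green and receptors purple, most points lie to the right of 0 on both sides, and no member passed at an adjusted p under 0.05.

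The interaction asked whether genotype differences were unlike in the sample types. None of the 19 members and none of 13578 genes passed (0.0%), with 6.36% of genes at an unadjusted p under 0.05 in the edgeR quasi-likelihood test, while DESeq2 called 7 genes and no member. Ackr3 had the smallest p among members, with a difference of log2 differences of 0.57 ± 0.23 (edgeR adjusted p = 0.769). On this scale all genes had a median of 0.14, and under TMM scaling, where that median was 0.01, the value of Ackr3 was 0.44. Ccl12 (1.70 ± 0.95), Cxcl1 (-0.80 ± 0.47) and Cxcl16 (0.43 ± 0.29) had larger unadjusted p.

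A list of 60 other genes of the pathway (chemokines outside the naming rule, receptor signalling, adhesion and inducing cytokines) gave no call by genotype either. In kidney 0 of 51 tested genes passed, with 13 higher and 0 lower at an unadjusted edgeR p under 0.05, where 3.68% of all genes were higher. Without Trp/Trp kidney replicate 1 these were 6 of 51, against 2.76% of all genes. Among the 13 was Cx3cr1, through which monocytes and macrophages sense fractalkine (1.22 ± 0.19, and 1.11 without that library). In F4/80+ libraries 0 of 44 passed and 8 were higher at that level, where 4.43% of all genes were. Without Arg/Arg F4/80+ replicate 1 these were 19 of 48, against 10.1% of all genes. Among the 8 were Rac2, a GTPase of leukocyte movement (3.48 ± 0.64), and the cytokines Tnf (3.06 ± 0.73) and Il1b (1.84 ± 0.49). Between sample types 11 were higher and 25 lower among 50 tested genes, where 26.5% and 37.3% of all genes were. Il1b was higher by 5.47 ± 0.45 (edgeR adjusted p = 2.76e-07) and the transcription factor Irf1 by 2.85 ± 0.18 (edgeR adjusted p = 3.89e-08) in F4/80+ libraries. Other genes listed as inducers went both ways. Tnf, Il1r1, Il17ra and Myd88 passed as higher. Irf7 (-1.88 ± 0.25), Tnfrsf1a (-1.47 ± 0.13), Nfkbia, Rela and Nfkb1 passed as lower. The receptor kinases Grk6 (-2.71 ± 0.16) and Grk2 (-1.75 ± 0.12), which switch off chemokine receptors, and the G protein subunit Gnai2 (-1.33 ± 0.13) were lower, as was Cx3cr1 (-1.77 ± 0.30).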

How the data were processed

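Polyadenylated RNA was sequenced in 12 libraries, grouped by the labels. The submitters' processing notes name STAR, DRAGEN, DESeq2 and mm10, without versions or roles. The authors deposited a table per sample type with raw counts per gene and their DESeq2 log2 fold changes and p-values. The deposited log2 values and p-values were used only to check direction. The smallest row sum was 12 in the kidney table and 10 in the F4/80+ table.

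Counts were tested with edgeR 4.0.16 (R 4.3.3; quasi-likelihood F test, filterByExpr with minimum count 10 and total 15, TMM, Benjamini-Hochberg adjustment over all genes fitted, threshold 0.05) for genotype within each table. Sample type and interaction were fitted over all 12 libraries on nuclear protein-coding genes in both tables, scaled by nuclear protein-coding totals. The SE is the absolute log2 value over the square root of F. DESeq2 1.42.0, other scalings, no filter, the replicate block and leaving out each library were alternatives. Common biological coefficients of variation were 0.101 in kidney and 0.28 in F4/80+ libraries. The procedure was tested on simulated data. Exon lengths and overlaps came from GENCODE M21, in which all 37 members had the coordinates of the tables. Promoters came from RefSeq. Of the genes matching the naming rule, 2 are not reported here. Members, marker lists and pathway lists were chosen with earlier results of these data known. Genes were named by level (the 6 highest ligands and receptors per table) and by test; others named were chosen after their values were seen.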

Additional observations from a re-analysis of the deposited data

Results flagged for a closer look

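In each sample type the highest and the lowest of 6 libraries were compared with their nearest neighbour for the 56 series of member levels (35 in kidney and 21 in F4/80+ libraries), and 14 had a library apart from the rest by Dixon's 95% criterion, which chance meets in about 1 in 20 groups. Each series pools both genotypes of a sample type, and members are not independent of each other. In 13 of them the library was Trp/Trp kidney replicate 1, always as the highest. Among ligands these were Cxcl12 at 214.1 CPM (next 174.1), Ccl6 at 7.459 CPM (next 4.684), Ccl21a at 5.349 CPM (next 2.54), Ccl9 at 4.221 CPM (next 1.754), Ccl17 at 2.024 CPM (next 0.1914), Ccl8 at 1.764 CPM (next 0.7309), Ccl19 at 1.561 CPM (next 0.4401), Ccl22 at 1.417 CPM (next 0.6185) and Cxcl13 at 1.272 CPM (next 0.4349). Among receptors they were Cxcr3, the receptor of Cxcl9 and Cxcl10 on T cells, at 2.053 CPM (next 0.8733), Ccr1 at 1.185 CPM (next 0.5018), Ccr7 at 1.012 CPM (next 0.3827) and the atypical receptor Ackr2 at 0.8673 CPM (next 0.5001). The remaining one was Ccr9 in Trp/Trp F4/80+ replicate 2, at 4.816 CPM (next 2.055).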

How the results depend on the processing

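The counts of genes past the threshold by genotype and for the interaction were 0 under edgeR in all settings but the following. DESeq2 called 15 genes in kidney, 11 in F4/80+ libraries and 7 for the interaction, and leaving out single libraries gave 0 to 846 genes for the interaction, 846 without Arg/Arg F4/80+ replicate 1 (no member among them). The cause was not tested. For sample type, TMM scaling gave 4390 higher and 4344 lower genes in place of 3598 and 5062. The log2 value of Ccl27a in kidney turned to 0.0026 on nuclear protein-coding counts without TMM, and lay between -0.067 and 0.046 with single libraries left out. With single libraries left out, member log2 values by genotype ranged from 1.22 to 1.66 for Ccl2 and 0.62 to 1.13 for Ccr2 in kidney, and from 2.23 to 3.14 for Ccl12 and 1.42 to 3.70 for Ccl2 in F4/80+ libraries. Low values such as the 0.126 CPM of Ccl2 rest on 1 to 3 counts, which limits their precision. Calls for sample type lost under an alternative were those of Ccl2, Ccl6, Ccl27a and Cxcl9, with the values given in the report, out of the 14 members that passed, all of which kept their sign. The named members for genotype kept their sign in 9 of 10 cases in kidney and in 10 of 10 in F4/80+ libraries. Dividing by all counts instead of nuclear protein-coding counts lowered Cxcl10 in F4/80+ libraries to 11.5 CPM.

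No pairing by replicate number was seen. Deviations of same-numbered kidney libraries correlated at -0.08, -0.02 and -0.01 and those of F4/80+ libraries at -0.31, -0.49 and 0.18. Differently numbered F4/80+ libraries reached 0.48. Deviations from means of 3 libraries cannot show whether samples were handled together. With the replicate block 0 genes passed by genotype or for the interaction, and 8018 genes and 13 members passed for sample type, with the call for Ccl27a lost (0.41, adjusted p = 0.0865).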
